A study of Arabidopsis thaliana with 2 samples.

Results

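Of the 6791 genes in an RNA sequencing table that set ago1-27 against wild type, 51 lay below 0.5 RPKM in wild type and at 2 RPKM or more in ago1-27. RPKM counts reads per kilobase of transcript after scaling for library depth. The genes were chosen by these measured RPKM values, and 4 seed storage genes that met them too were left out by the rule. The difference between the genotypes is therefore a description of how the genes were chosen, and no test of it is given.

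The ago1-27 plants carry a weak allele of ARGONAUTE1 (AGO1), and the wild-type plants carry no allele named in the labels. RNA was taken from tissue labelled as flower buds, from soil-grown plants kept at 20 °C with 16 hours of light and 8 hours of dark. The libraries do not keep strand. Each genotype was described as 3 biological replicates, but the table holds 1 RPKM value per genotype, so no deposited value has an SD and no deposited difference has a replicate check. AGO1 protein holds microRNAs (miRNAs) and, guided by them, cuts target transcripts or represses their translation. Only part of the genome is under direct miRNA control, and the known plant targets are mostly transcription factors and other regulators. The genes described here include surface receptors and secreted proteins of defence, enzymes made when oxygen is short, proteins of drying seeds, small peptides, transcription factors and genes with no known role.

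The table lists genes that differed between the genotypes, with almost none at a ratio near 1, and 4711 of its 6791 genes (69.4%) had a higher value in ago1-27. With a pseudocount of 1, the log2(RPKM + 1) difference was at least 1 in 748 of the 6606 genes with 1 RPKM or more in either genotype, which is 11.3%. All 51 genes passed that threshold, but both limits together place a gene there, so nothing is read from this count. A reversed rule, below 0.5 RPKM in ago1-27 and at least 2 RPKM in wild type, held for 52 genes. The tissue label could be checked only in part, since AP1 and LFY were the floral organ identity and meristem genes listed out of 8. AP1 had 0.733 RPKM in ago1-27 and 0.0779 RPKM in wild type, and LFY had 1.17 RPKM in ago1-27 and 0.151 RPKM in wild type. Both were below 0.5 RPKM in wild type, so they do not bear out a label of flower buds. The pollen genes AGP6, ANX1 and STP9 had 1.49, 2.33 and 0.167 RPKM in ago1-27. In wild type they had 0.377, 1.43 and 0.917 RPKM. RCA, the Rubisco activase of green tissue, had 3390 RPKM in ago1-27 and 5341 RPKM in wild type. The leaf gene LHCB1.1 had 25.3 RPKM in ago1-27 and 74.5 RPKM in wild type. PYK10, listed as a root gene, had 125 RPKM in ago1-27 and 192 RPKM in wild type. In bulk tissue, fewer cells that express a gene and less RNA per cell cannot be told apart.

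In ago1-27 the 51 genes ran over 2.01 to 11.1 RPKM with a median of 2.94 RPKM. In wild type they ran over 0.0475 to 0.491 RPKM with a median of 0.359 RPKM. The genes were thus low in ago1-27 as well, where 25 reached 3 RPKM, 11 reached 5 RPKM and 2 reached 10 RPKM, against a median of 9.29 RPKM over the whole table in ago1-27. The RPKM ratio of ago1-27 to wild type was at least 5 in 48 of the genes, at least 10 in 25 and at least 20 in 7. The median difference in log2(RPKM + 1) was 1.61, beside 0.62 over all rows.

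**Figure D1:**
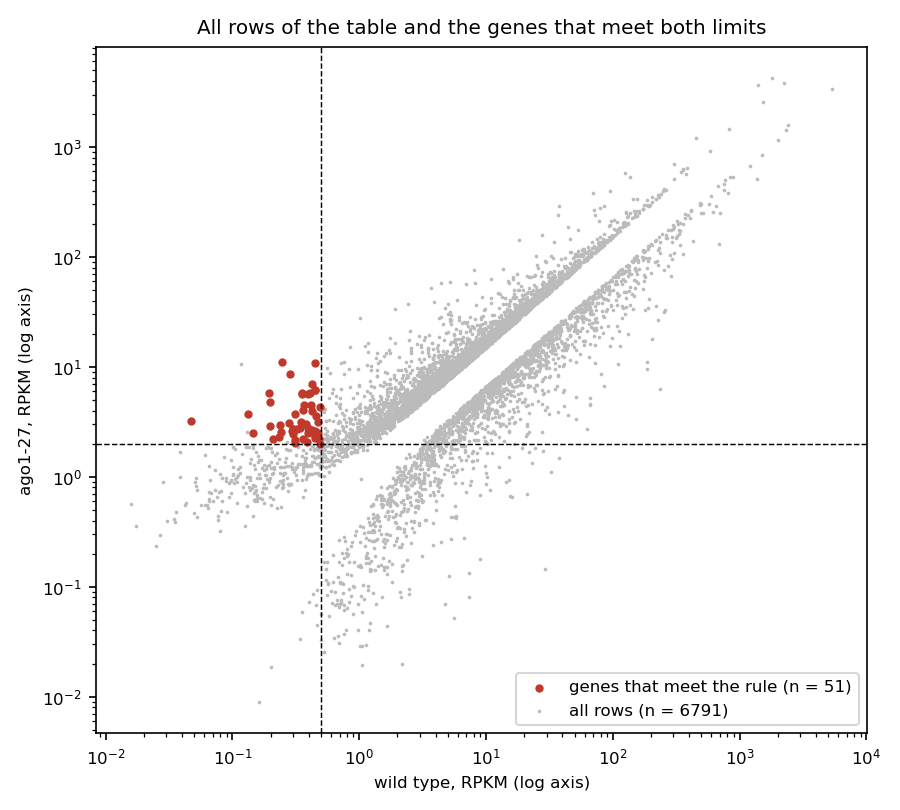
Each point is a gene of the table, with RPKM in ago1-27 on the vertical axis and RPKM in wild type on the horizontal axis, both log axes. The dashed lines are the limits at 2 RPKM in ago1-27 and 0.5 RPKM in wild type, and the 51 red points fill the corner they mark, where no gene exceeded 11.1 RPKM in ago1-27.

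The name near silent describes a low level and not an absence of reads in wild type. Reads were estimated from RPKM, the shortest annotated transcript and the mean library of 11955563 reads for ago1-27 and 11845532 reads for wild type. They came to 13.2 to 376 per gene with a median of 42.1 in 1 average ago1-27 library, and to 0.369 to 15.4 with a median of 4.71 in 1 average wild-type library. At these depths 12 of the genes had 3 or fewer estimated wild-type reads, and for those a ratio is given only where reads could be put back into libraries. Intervals are 95% exact binomial (Clopper-Pearson) intervals on the ratio of estimated reads, and they cover counting error only. They rest on the values that chose the genes and test nothing.

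The low values moved in steps of whole reads, and 19 of the 51 genes could be written as whole reads of named library sizes. For 11 of these genes both values were means over all 3 library pairs, for 2 genes over 2 pairs and for 6 genes over 1 pair. Reads per library below are this reconstruction, given as a description, and the pairs carry no replicate number from the labels. The other 32 genes could not be split into libraries. For most solved genes the length found was below the shortest annotated transcript, such as 1708 against 2783 bases for CYP706A3. It was equal for CRK6 and longer for MYB10, at 890 against 835 bases. Where the length used was shorter, the estimated reads are too high and their intervals too narrow. More than 12 genes may then have 3 or fewer wild-type reads.

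**Figure D2:**
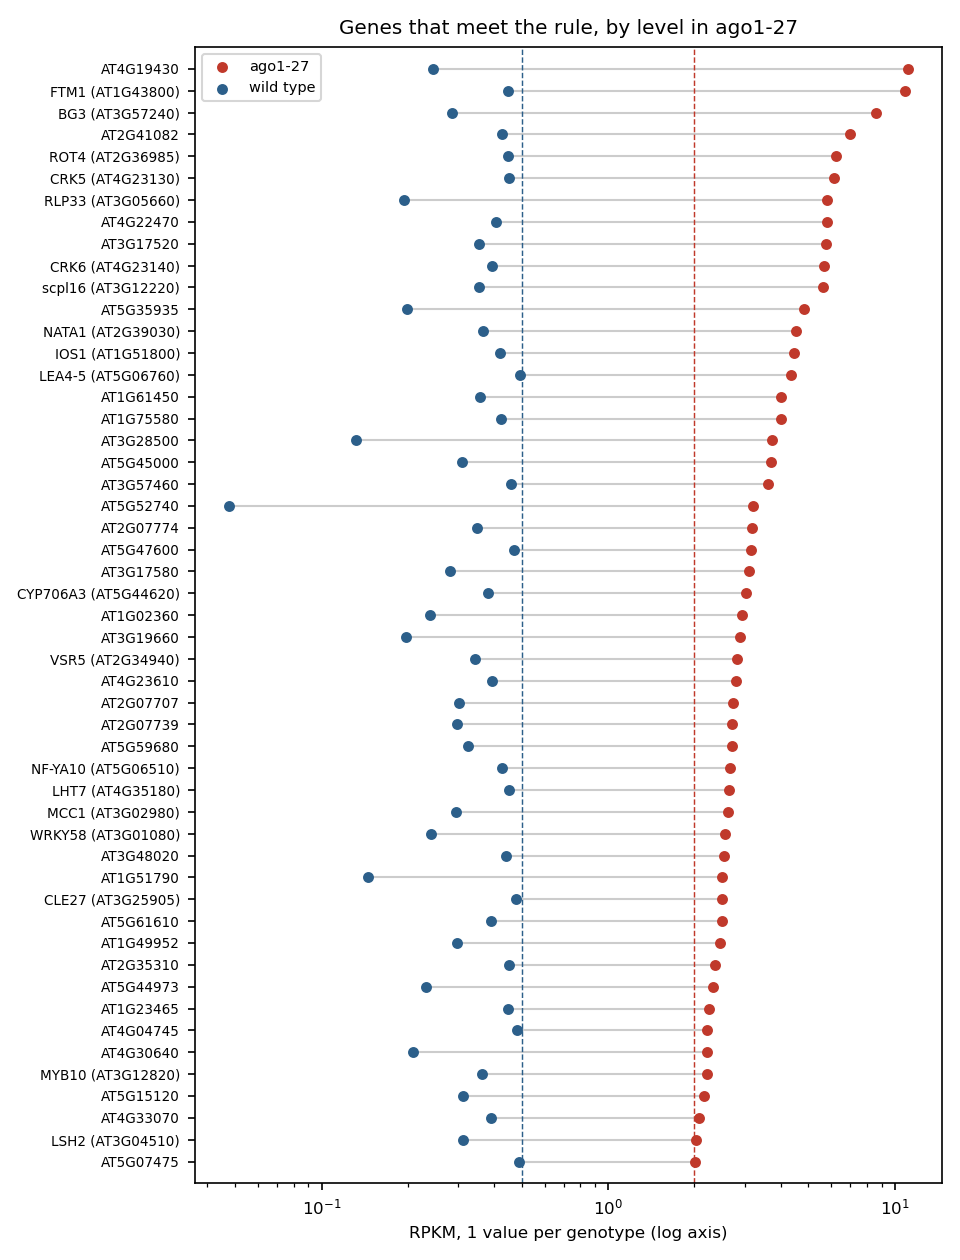
RPKM in ago1-27 (red) and wild type (blue) on a log axis for each of the 51 genes, with 1 value per genotype and dashed lines at the limits of 2 and 0.5 RPKM. Levels in ago1-27 fall from 11.1 RPKM at the top to 2.01 RPKM at the bottom, and AT5G52740 stands apart in wild type at 0.0475 RPKM.

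Cell surface receptors made up 6 of the 51 genes. Receptor-like kinases sense molecules outside the cell and signal through an inner kinase domain, and receptor-like proteins have the outer part without the kinase. IOS1 (AT1G51800), a leucine-rich repeat receptor kinase that takes part in immune signalling, had 4.46 RPKM in ago1-27 and 0.420 RPKM in wild type, or about 162 and 15.1 reads, for a ratio of 10.6 (interval 6.30 to 19.6). Its neighbour AT1G51790, of the same kinase family, had 2.497 RPKM in ago1-27 and 0.146 RPKM in wild type, or about 101 and 5.83 reads, for a ratio of 17.2 (7.40 to 46.5). The genes lie at chr1:19214072-19218053 on the plus strand and chr1:19206615-19211971 on the minus strand (TAIR10.1), with 2100 bases between them. AT5G59680, another leucine-rich repeat kinase, had 2.71 RPKM in ago1-27 and 0.323 RPKM in wild type, for a ratio of 8.38 (4.76 to 17.3). The next gene, AT5G59670, is of the same family and was much more abundant in both genotypes, with 63.0 RPKM in ago1-27 and 11 RPKM in wild type.

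CRK5 and CRK6, receptor kinases with cysteine-rich outer domains, were the other adjacent pair. CRK5 (AT4G23130, chr4:12117491-12120220, minus strand) had 6.15 RPKM in ago1-27 and 0.451 RPKM in wild type, or about 166 and 12.1 reads, for a ratio of 13.7 (7.64 to 27.1). CRK6 (AT4G23140, chr4:12121369-12124564, plus strand) had 5.65 RPKM in ago1-27 and 0.392 RPKM in wild type. Its reads could be put back into libraries, as 152, 163 and 135 in ago1-27 and 8, 12 and 10 in wild type, and the ratio of summed reads was 14.9 (10.3 to 22.3). The genotypes did not overlap, as the choice of genes on their means would favour. The libraries stood at 4.94 to 6.02 RPKM in ago1-27 and at 0.259 to 0.516 RPKM in wild type. CRK6 shared 22.1% of its exonic 50-base windows with another place in the genome, and in those windows its reads and those of a close copy cannot be told apart. CRK7, next to CRK6 on the other side, was below the limit in ago1-27, with 1.20 RPKM in ago1-27 and 0.202 RPKM in wild type.

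The starts of CRK5 and CRK6 face each other across 1148 bases. The 150 bases before each annotated start, and before that of IOS1, are shown because they hold the W-box, the sequence bound by WRKY transcription factors that act in defence. Sequences are from the RefSeq TAIR10.1 genome on the strand of the gene, and capitals mark TTGACC or TTGACT on either strand. The windows are chr4:12120221-12120370 for CRK5, chr4:12121219-12121368 for CRK6 and chr1:19213922-19214071 for IOS1.
CRK5: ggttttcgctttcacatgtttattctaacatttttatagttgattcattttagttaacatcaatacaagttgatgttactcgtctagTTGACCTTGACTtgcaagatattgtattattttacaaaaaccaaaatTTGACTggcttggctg
CRK6: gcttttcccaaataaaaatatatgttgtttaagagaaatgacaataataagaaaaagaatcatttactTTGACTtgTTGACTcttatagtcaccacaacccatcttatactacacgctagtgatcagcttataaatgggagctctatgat
IOS1: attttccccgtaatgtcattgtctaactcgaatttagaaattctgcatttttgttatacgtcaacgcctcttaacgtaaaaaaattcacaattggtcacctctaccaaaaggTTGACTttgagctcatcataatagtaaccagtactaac
In CRK5 a pair of W-boxes abuts and another ends 11 bases before the start. In CRK6 the pair is separated by 2 bases. Over the 250 bases before the start, 18 of the 51 genes (35.3%) held a W-box, beside 1998 of 6772 annotated genes of the table (29.5%) and 7797 of 27444 nuclear protein-coding genes (28.4%). The share was near that of the table, and a match describes letters, not binding.

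RLP33 (AT3G05660, chr3:1648843-1652149, minus strand), a receptor-like protein, had 5.81 RPKM in ago1-27 and 0.194 RPKM in wild type, or about 222 and 7.34 reads, for a ratio of 29.9 (15 to 79.1). RLP32, 100 bases from it and known as a receptor for a bacterial protein, had 11.3 RPKM in ago1-27 and 1.46 RPKM in wild type. The table held 26 of 54 annotated receptor-like proteins, of which 25 were higher in ago1-27. The count stayed at 25 after ago1-27 was rescaled so that the median ratio over the table was near 1. That rescaling can reverse only a ratio between 1 and 1.62, the median of the table. The lowest of the 25 ratios was 1.63, for RLP26, so the unchanged count says no more than this. Over all rows, 69.4% were higher before that rescaling and 3395 of 6791 after it. The table also held 18 of 40 CRK genes, of which 14 were higher before that rescaling and 13 after it. Inside the cell, AT5G45000, a disease resistance protein of the class with a Toll and interleukin receptor domain, had 3.70 RPKM in ago1-27 and 0.310 RPKM in wild type, for a ratio of 11.9 (5.46 to 30.1). It overlaps DSS1(V) on the opposite strand over 636 bases, and reads of the pair cannot be told apart without strand. Of 57 genes in the table matched by annotation words for disease resistance, 35 were higher in ago1-27 and 22 lower. This match on words is not limited to immune receptors, and it took in ESB1. Upward 4 of the 57 passed the threshold, AT5G45000 included, and downward 5, beside 11.3% and 10.5% over the table.

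Secreted enzymes that attack microbial walls came next. BG3 (AT3G57240, chr3:21181642-21183144, minus strand), a beta-1,3-glucanase of the pathogenesis-related group, was the third highest of the 51 genes, with 8.59 RPKM in ago1-27 and 0.285 RPKM in wild type, or about 144 and 4.72 reads, for a ratio of 30.1 (11.9 to 89.2). AT1G02360, a chitinase, had 2.94 RPKM in ago1-27 and 0.239 RPKM in wild type. Its libraries held 29, 40 and 38 reads in ago1-27 and 5, 1 and 3 reads in wild type, for a ratio of summed reads of 11.8 (5.98 to 26.5). The genotypes did not overlap, which the choice of genes on their means would favour here too. All 13 genes in the table with glucanase or chitinase among their annotation words were higher in ago1-27. This match on words is not limited to enzymes that attack microbial walls, and it took in XEG113. The lowest of the 13 ratios, 1.71 for XEG113, was too high for that rescaling to reverse. Of the 13, 8 passed the threshold, 2 of them placed there by the rule, where the share over the table was 11.3%. AT5G44973, a small defensin-like protein, had 2.32 RPKM in ago1-27 and 0.232 RPKM in wild type, only about 13.2 and 1.3 reads, with an interval on the ratio of 1.94 to 547.

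The set also held genes of defence chemistry and transport. WRKY58 (AT3G01080), a transcription factor of the W-box binding family, had 2.55 RPKM in ago1-27 and 0.241 RPKM in wild type, for a ratio of 10.6 (4.06 to 42.7). Of 24 WRKY genes in the table, 16 were higher in ago1-27 and 8 lower, where 69.4% of all rows were higher. Upward 5 of the 24 passed the threshold, with WRKY58 placed there by the rule, and downward 4, beside 11.3% and 10.5% over the table. NATA1 (AT2G39030), the acetyltransferase that makes N-delta-acetylornithine in response to jasmonate, had 4.54 RPKM in ago1-27 and 0.366 RPKM in wild type. Its libraries held 48, 63 and 48 reads in ago1-27 and 3, 8 and 1 reads in wild type. The wild-type libraries of NATA1 were uneven, and the ratio of summed reads was 13.1 (7.31 to 25.9). The ratio of mean RPKM was 26.6 without library pair 2, against 12.4 over all 3 pairs.

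CYP706A3 (AT5G44620), a cytochrome P450 that oxidises terpenes, had 3.02 RPKM in ago1-27 and 0.380 RPKM in wild type, with 61, 61 and 63 reads in the ago1-27 libraries and 9, 8 and 6 in the wild-type libraries, for a ratio of summed reads of 7.97 (5.15 to 12.9). The gene beside it, AT5G44630, belongs to the terpenoid cyclases and stayed below the limit, at 0.766 RPKM in ago1-27 and 0.0526 RPKM in wild type. Of 74 cytochrome P450 genes in the table, 29 were higher in ago1-27 and 45 lower. Upward 7 of them passed the threshold, with CYP706A3 placed there by the rule, and downward 17, beside 11.3% and 10.5% over the table. LHT7 (AT4G35180), of the lysine and histidine transporter family, had 2.63 RPKM in ago1-27 and 0.450 RPKM in wild type, for a ratio of 5.85 (3.30 to 12.4), and overlaps AT4G35170 on the opposite strand over 603 bases. Of the 51 genes, AT5G52740, annotated as a copper transport protein, had the lowest wild-type level, with 3.19 RPKM in ago1-27 and 0.0475 RPKM in wild type. About 25.1 and 0.369 reads lay behind those values, and the interval on the ratio was 4.05 to 1017. Its relatives next door, AT5G52750 and AT5G52760, were far more abundant and moved less, at 16.97 and 11.93 RPKM in ago1-27 and 8.931 and 6.534 RPKM in wild type. Finally scpl16 (AT3G12220, chr3:3896207-3899019, minus strand), of the serine carboxypeptidase-like family, had 5.63 RPKM in ago1-27 and 0.355 RPKM in wild type, or about 84.6 and 5.28 reads, for a ratio of 15.9 (6.94 to 53.2). It overlaps AT3G12210 on the opposite strand over 361 bases.

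FTM1 (AT1G43800, chr1:16577521-16579722, plus strand), also called SAD6, was the second highest of the 51 genes and the one with the most reads among those put back into libraries. It encodes a stearoyl-acyl carrier protein desaturase, known both from floral transition and from low oxygen, and had 10.9 RPKM in ago1-27 and 0.448 RPKM in wild type. Its libraries held 166, 194 and 187 reads in ago1-27 and 7, 6 and 9 reads in wild type. The libraries stood at 10.4 to 11.4 RPKM in ago1-27 and at 0.360 to 0.574 RPKM in wild type, and the ratio of summed reads was 24.6 (16.1 to 39.6).

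PCO1 and PDC1 belong to the response to low oxygen as well. PCO1 (AT5G15120, chr5:4898641-4900734, plus strand) is a cysteine oxidase that uses oxygen to mark group VII ERF transcription factors for breakdown. It had 2.16 RPKM in ago1-27 and 0.312 RPKM in wild type, from 34, 28 and 30 reads in ago1-27 libraries and 5, 6 and 2 reads in wild-type libraries, for a ratio of 7.01 (3.90 to 13.7). PDC1 (AT4G33070, chr4:15952257-15954803, minus strand) is a pyruvate decarboxylase, the enzyme that leads pyruvate into ethanol fermentation, and had 2.07 RPKM in ago1-27 and 0.390 RPKM in wild type, or about 54.7 and 10.2 reads, for a ratio of 5.30 (2.751 to 11.99).

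A list of 16 low-oxygen genes was written after these 3 had been seen, so its count is no independent support. The table held 10 of the 16, and all 10 were higher in ago1-27. The lowest of their ratios was 1.93, for HRE1, too high for the rescaling to the median ratio to reverse. Of the 10, 8, the 3 of the rule included, passed the threshold that 11.3% of the table passed. The median log2(RPKM + 1) difference of the 10 was 1.31, beside 0.62 over all rows. HB1, a non-symbiotic hemoglobin, had 11.1 RPKM in ago1-27 and 3.09 RPKM in wild type. ADH1, the alcohol dehydrogenase that follows pyruvate decarboxylase, had 8.99 RPKM in ago1-27 and 2.94 RPKM in wild type. PCO2, the close relative of PCO1, was near silent in both, at 0.566 RPKM in ago1-27 and 0.0160 RPKM in wild type. The transcription factors HRA1, LBD41 and HRE1 stood at 7.43, 7.07 and 6.04 RPKM in ago1-27 and at 2.27, 2.06 and 3.12 RPKM in wild type, so HRE1 moved least. WIP4 had 4.47 RPKM in ago1-27 and 1.42 RPKM in wild type.

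**Figure D3:**
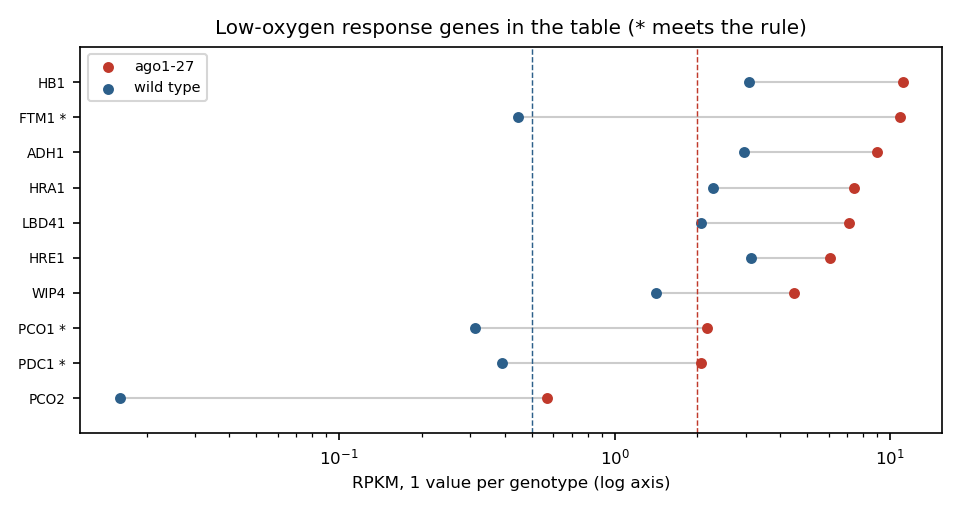
RPKM in ago1-27 (red) and wild type (blue) on a log axis for the 10 low-oxygen genes in the table, with dashed lines at 2 and 0.5 RPKM and a star at the 3 genes that meet both limits. In all 10 the ago1-27 value is the higher one, and PCO2 lies lowest, at 0.566 RPKM in ago1-27.

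Genes of drying seeds and tissues remained in the set after the storage genes were left out. LEA proteins build up as seeds mature and in plants short of water, and protect other proteins as cells dry. LEA4-5 (AT5G06760, chr5:2089445-2090430, minus strand) had 4.35 RPKM in ago1-27 and 0.491 RPKM in wild type, or about 47 and 5.25 reads, for a ratio of 8.86 (3.72 to 30.0). AT3G17520 (chr3:5999174-6000447, minus strand), also of the LEA class, had 5.76 RPKM in ago1-27 and 0.356 RPKM in wild type, or about 87.7 and 5.37 reads, for a ratio of 16.2 (7.20 to 55.0). AT4G23610, from the separate hydroxyproline-rich LEA family, had 2.79 RPKM in ago1-27 and 0.394 RPKM in wild type, for a ratio of 7.09 (2.33 to 26.3). It overlaps AT4G23620 on the opposite strand over 247 bases. The table held 21 genes with late embryogenesis in their annotation, of which 16 were higher as deposited, 15 once rescaled to the median ratio, beside 69.4% of all rows as deposited. Of the 21, 9 passed the threshold upward, 3 of them placed there by the rule, and 3 passed it downward, beside 11.3% and 10.5% over the table.

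The 150 bases before the start of LEA4-5, at chr5:2090431-2090580 and read on the minus strand, are shown because they hold ACGTG, the core bound by factors of the abscisic acid response. Capitals mark ACGTG on either strand, and the first run, CACGTG, holds it on both.
LEA4-5: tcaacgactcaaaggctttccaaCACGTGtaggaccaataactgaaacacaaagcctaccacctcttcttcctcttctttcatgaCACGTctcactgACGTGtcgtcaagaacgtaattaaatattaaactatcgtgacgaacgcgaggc
The 250 bases before the start held ACGTG in 16 of the 51 genes (31.4%) and in 1644 of 6772 genes of the table (24.3%). The G-box CACGTG, which contains it, was found in 5 of 51 (9.80%) and 7.21%, and the RY motif CATGCA of seed promoters in 4 of 51 (7.84%) and 8.18%. TGACG was found in 9 of 51 (17.6%) and 19.9%, TGTCTC in 4 of 51 (7.84%) and 10.8%, GCCGCC in 2 of 51 (3.92%) and 2.01%, and TATAAA in 20 of 51 (39.2%) and 47.0%. Each share of the 51 genes was within 8 percentage points of that of the table.

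AT5G61610, of the oleosin family that coats oil bodies, had 2.49 RPKM in ago1-27 and 0.392 RPKM in wild type, for a ratio of 6.36 (2.45 to 20.9). Of 3 oleosin genes in the table, 2 were higher in ago1-27. AT5G56100 was lower, with 3.66 RPKM in ago1-27 and 13.7 RPKM in wild type. AT4G22470 (chr4:11840134-11841450, minus strand), annotated as a protease inhibitor, seed storage and lipid transfer protein, had 5.80 RPKM in ago1-27 and 0.407 RPKM in wild type, or about 91.4 and 6.35 reads, for a ratio of 14.3 (6.64 to 42.0). AT4G22467 overlaps all 1317 bases of it on the opposite strand, so the source of these reads cannot be told apart. AT4G22485, a gene of the same superfamily 3055 bases away, went the other way, with 6.25 RPKM in ago1-27 and 237 RPKM in wild type. VSR5 (AT2G34940), a receptor that sorts proteins to the vacuole, had 2.81 RPKM in ago1-27 and 0.342 RPKM in wild type, for a ratio of 8.21 (3.89 to 17.8).

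Signals and regulators of growth were spread over several families. ROT4 (AT2G36985, chr2:15534739-15535304, minus strand), a small DVL peptide that limits cell proliferation along the leaf axis, had 6.22 RPKM in ago1-27 and 0.447 RPKM in wild type, or about 42.1 and 3 reads, with an interval on the ratio of 4.433 to 69.96. CLE27 (AT3G25905), of the CLAVATA3-related peptide family, had 2.49 RPKM in ago1-27 and 0.477 RPKM in wild type, for a ratio of 5.23 (1.95 to 22.7). SAUR51 (AT1G75580), of a family of early auxin response genes, had 4.002 RPKM in ago1-27 and 0.422 RPKM in wild type, for a ratio of 9.49 (3.55 to 28.8). In the table, 11 of 28 SAUR genes, 3 of 7 DVL genes and 5 of 5 CLE genes were higher in ago1-27 as deposited, and 10, 3 and 4 of them once rescaled to the median ratio, beside 69.4% of all rows as deposited.

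Among DNA and chromatin proteins, LSH2 (AT3G04510, chr3:1215633-1216958, minus strand), of the ALOG family of developmental regulators, was the second closest to the ago1-27 limit, with 2.02 RPKM in ago1-27 and 0.311 RPKM in wild type. Its libraries held 27, 39 and 30 reads in ago1-27 and 8, 5 and 2 reads in wild type, for a ratio of summed reads of 6.34 (3.66 to 11.8). MYB10 (AT3G12820), which acts with MYB72 in the iron deficiency response, had 2.21 RPKM in ago1-27 and 0.362 RPKM in wild type, from 26 and 22 reads in ago1-27 and 3 and 4 reads in wild type in 2 library pairs, for a ratio of summed reads of 6.07 (2.73 to 15.9). REM23 (AT2G35310), a B3 transcription factor, had 2.35 RPKM in ago1-27 and 0.452 RPKM in wild type, for a ratio of 5.21 (2.29 to 12.3). MCC1 (AT3G02980), a histone acetyltransferase known from meiotic crossovers, had 2.62 RPKM in ago1-27 and 0.294 RPKM in wild type, for a ratio of 8.91 (3.58 to 38.1). On the opposite strand, MYB10 overlaps PIE1 over 340 bases and MCC1 overlaps AT3G01225 over 247 bases. Reads of these overlaps cannot be told apart without strand.

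NF-YA10 (AT5G06510), a subunit of the CCAAT-binding nuclear factor Y and a known miR169 target, had 2.66 RPKM in ago1-27 and 0.426 RPKM in wild type, or about 31 and 4.91 reads, for a ratio of 6.25 (2.37 to 20.2). The table held 8 NF-YA genes, 7 of them higher in ago1-27, at ratios too high for the rescaling to the median ratio to reverse. NF-YA10 was the lowest of the 8 in both genotypes. It was also the single gene of the 51 with a site for a miRNA of the search. The search used 117 mature sequences of chosen Arabidopsis miRNA families. It counted a mismatch as 1 and a G:U pair as 0.5, doubled both at miRNA bases 2 to 13, and kept scores of at most 4. It found a site in 1 of 51 genes (1.96%), in 148 of 6772 genes of the table (2.19%) and in 11 of the 257 genes below both limits (4.28%). The site lies in the 3' UTR at chr5:1986750-1986770 on the plus strand, with a score of 3 for miR169d. The miRNA is shown with its seed, bases 2 to 8, in capitals. The site, as DNA, has capitals where it is the exact complement of miR169d, so its G:U pair stands in lower case like the mismatches.
miR169d: uGAGCCAAggaugacuugccg
NF-YA10 site: aGGCAAaTCATCtTTGGCTCA
The miR169h sequence matched an overlapping site 1 base upstream with the same score. Thus 50 of the 51 genes held no site by this search, which says only that these families found no match at this score.

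Of the 51 genes, 3 lie where reads cannot be placed with certainty. AT2G07707, AT2G07739 and AT2G07774 are in the insertion of mitochondrial DNA near the centromere of chromosome 2, and all of their exonic 50-base windows, 100%, also occur in the mitochondrial genome. AT2G07707, a mitochondrial ATPase subunit 8 copy at chr2:3386292-3386768, had 2.73 RPKM in ago1-27 and 0.302 RPKM in wild type, or about 15.6 and 1.71 reads, with an interval on the ratio of 1.86 to 71.1. AT2G07739, annotated as Ycf1, had 2.71 RPKM in ago1-27 and 0.298 RPKM in wild type, with an interval of 2.97 to 49.1. Of its windows, 35.5% also occur in the chloroplast genome, so a chloroplast copy cannot be told apart there either. AT2G07774 had 3.16 RPKM in ago1-27 and 0.348 RPKM in wild type, or about 22.4 and 2.43 reads, with an interval of 2.68 to 95.6. The first 50 coding bases of AT2G07707 are shown because the same letters stand in both genomes, in the nucleus at chr2:3386292-3386341 on the plus strand and in the mitochondrion at bases 247443 to 247492 on the minus strand.
AT2G07707: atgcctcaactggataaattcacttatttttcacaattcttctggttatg

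The table held 19 genes with at least 50% of their windows in the mitochondrial genome, all on chromosome 2 between bases 3251566 and 3496398. All 19 were higher in ago1-27, beside 69.4% of all rows as deposited. Their RPKM ratios were 1.995 to 10.45 with a median of 3.68, too high for the rescaling to the median ratio to reverse. They ran over 0.554 to 24.8 RPKM in ago1-27 and 0.0609 to 11.9 RPKM in wild type. AT2G07739 and AT2G07774 had exactly the same ratio, 9.11, as AT2G07727 in the same insertion. That ratio is the one given by 20 ago1-27 reads and 2 wild-type reads in 1 library pair, or by any multiple of them. RTFL1, a DVL gene outside the insertion, had the same ratio, so it is not particular to these genes. No row of the table bore a mitochondrial gene identifier, so nuclear and mitochondrial copies cannot be told apart. Over the table, 46 of 6772 genes (0.679%) had 50% or more of their windows repeated elsewhere, against 3 of the 51 (5.88%) and 12 of the 257 genes below both limits (4.67%).

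**Figure D4:**
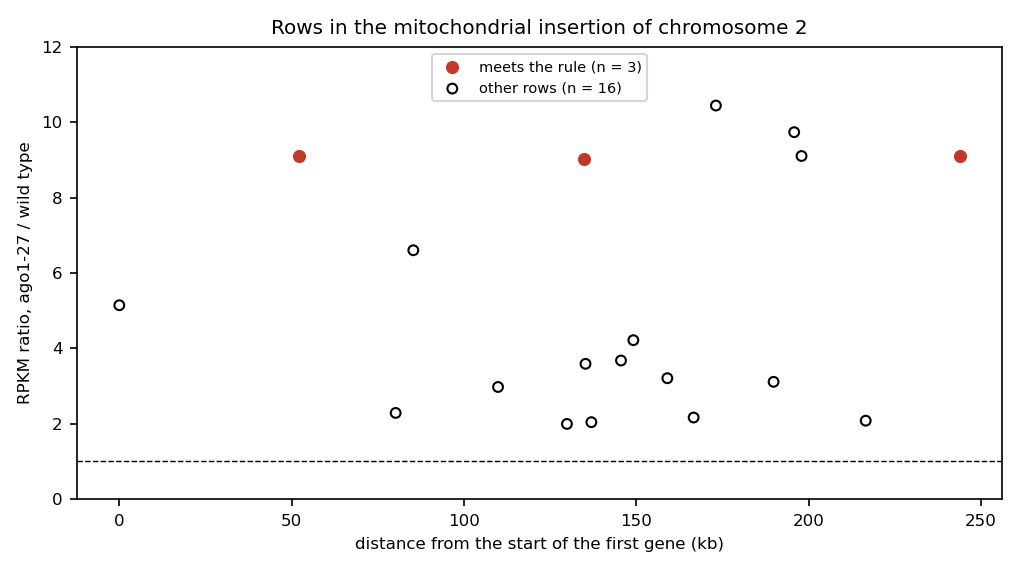
RPKM ratio of ago1-27 to wild type for the 19 genes of the mitochondrial insertion against the distance of their starts from the first of them, in kb, with a dashed line at a ratio of 1. All 19 points lie above the line, and the 3 genes that meet both limits (red) lie at ratios of 9.03 to 9.11.

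The highest of the 51 genes has no known role. AT4G19430 (chr4:10598371-10599182, minus strand), annotated as an uncharacterized protein, had 11.1 RPKM in ago1-27 and 0.245 RPKM in wild type. Its libraries held 92, 93 and 97 reads in ago1-27 and 2, 3 and 1 reads in wild type, for a ratio of summed reads of 46.6 (21.1 to 128). The ago1-27 libraries lay close together, and no wild-type library held more than 3 reads. Without library pair 2 the ratio of mean RPKM was 68.4, against 45.4 over all 3 pairs. AT2G41082 (chr2:17134825-17135059, plus strand), a very short gene, had 7.005 RPKM in ago1-27 and 0.425 RPKM in wild type, from about 19.7 and 1.18 reads, with an interval on the ratio of 3.17 to 821. It lies 287 bases from AT2G41090, an EF-hand calcium-binding protein gene with 698 RPKM in ago1-27 and 303 RPKM in wild type. AT5G35935 (chr5:14083388-14089891, minus strand), annotated as a pseudogene, had 4.84 RPKM in ago1-27 and 0.199 RPKM in wild type, or about 376 and 15.4 reads, for a ratio of 24.3 (14.9 to 44.8).

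AT3G28500, of the acidic ribosomal proteins of the 60S subunit, had 3.73 RPKM in ago1-27 and 0.132 RPKM in wild type. Its libraries held 26, 27 and 32 reads in ago1-27 and 1, 0 and 2 reads in wild type, for a ratio of summed reads of 28.1 (9.29 to 139). The 3 wild-type reads lie in 2 libraries, so the ratio of mean RPKM was 62.5 without library pair 3 and 19.5 without library pair 2, against 28.3 over all 3 pairs. AT5G47600, an HSP20-like chaperone, had 3.14 RPKM in ago1-27 and 0.470 RPKM in wild type, from 19, 24 and 25 reads in ago1-27 and 4, 4 and 2 reads in wild type, for a ratio of summed reads of 6.74 (3.45 to 14.7). Its HSP20 neighbour AT5G47590 had 3.78 RPKM in ago1-27 and 1.25 RPKM in wild type, so the pair differed less in ago1-27 than in wild type. Of 12 HSP20 genes in the table, 6 were higher in ago1-27 and 6 lower, where 69.4% of all rows were higher. Upward 3 of the 12 passed the threshold, with AT5G47600 placed there by the rule, and downward 3, beside 11.3% and 10.5% over the table. AT3G17580, annotated as an SsrA-binding protein, had 3.10 RPKM in ago1-27 and 0.281 RPKM in wild type, from 24, 26 and 24 reads in ago1-27 and 4, 1 and 2 reads in wild type, for a ratio of summed reads of 10.5 (4.84 to 26.96). AT5G07475 (chr5:2364706-2365605, minus strand), a cupredoxin, was the closest gene to the ago1-27 limit and the second closest to the wild-type limit, with 2.01 RPKM in ago1-27 and 0.489 RPKM in wild type, for a ratio of 4.10 (1.47 to 18.1).

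**Figure D5:**
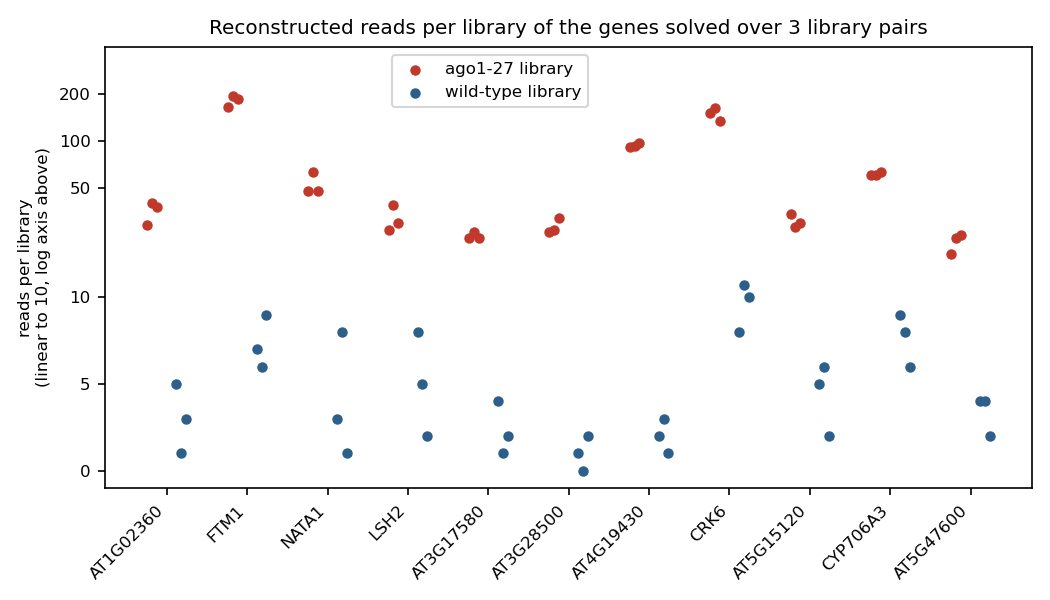
Reconstructed reads in each of the 3 ago1-27 libraries (red) and the 3 wild-type libraries (blue) for the 11 genes whose values were whole reads over 3 library pairs, on an axis that is linear to 10 reads and logarithmic above. FTM1 holds 166 to 194 reads per ago1-27 library and 6 to 9 per wild-type library, and in no gene do the genotypes overlap, as the choice of genes on their means would favour.

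The remaining genes were described by annotation alone. AT3G57460, annotated as a metalloendopeptidase, had 3.60 RPKM in ago1-27 and 0.458 RPKM in wild type, for a ratio of 7.87 (3.85 to 19.4). AT1G23465, a peptidase of the S24 and S26 families, had 2.24 RPKM in ago1-27 and 0.449 RPKM in wild type, for a ratio of 4.99 (1.62 to 29.9). AT4G30640, a protein with RNase inhibitor-like repeats, had 2.21 RPKM in ago1-27 and 0.208 RPKM in wild type, or about 30.5 and 2.84 reads, with an interval on the ratio of 3.08 to 50.7. The RNA gene AT1G49952 had 2.46 RPKM in ago1-27 and 0.298 RPKM in wild type, or about 16.2 and 1.94 reads, with an interval of 1.86 to 71.1. AT1G61450, annotated as a CAP-gly domain linker, had 4.02 RPKM in ago1-27 and 0.359 RPKM in wild type, for a ratio of 11.2 (3.775 to 39.95), and overlaps AT1G61440 on the opposite strand over 120 bases.

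The uncharacterized genes AT3G19660, AT3G48020 and AT4G04745 had 2.88, 2.54 and 2.22 RPKM in ago1-27 and 0.197, 0.440 and 0.479 RPKM in wild type. AT4G04745 drew its values from 2 library pairs, with 16 and 14 reads in ago1-27 and 5 and 2 reads in wild type, for a ratio of summed reads of 4.43 (1.91 to 11.9). AT3G19660 and AT3G48020, like AT5G07475 and AT5G44973, matched whole reads of 1 library pair, so their values may rest on a single library per genotype. With about 39.6 and 2.69 reads, the interval on the ratio was 4.21 to 66.8 for AT3G19660, and it was 2.04 to 23.6 for AT3G48020. The match to 1 library pair gave AT3G19660 fewer reads than that estimate, 17 in ago1-27 and 1 in wild type.

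The limits cut through a continuous range of values. Just inside the wild-type limit lay LEA4-5 and AT5G07475, at 0.491 and 0.489 RPKM in wild type. Just outside it lay AT1G66930, with 2.24 RPKM in ago1-27 and 0.507 RPKM in wild type, and RBK1, with 2.09 RPKM in ago1-27 and 0.511 RPKM in wild type. Just inside the ago1-27 limit lay AT5G07475 and LSH2, at 2.01 and 2.02 RPKM in ago1-27. Just outside it lay the homeobox-related KNATM, with 1.997 RPKM in ago1-27 and 0.487 RPKM in wild type, and bHLH38, a regulator of iron uptake, with 1.994 RPKM in ago1-27 and 0.495 RPKM in wild type.

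Several properties that the rule did not use could be set beside the table. Of the 51 genes, 49 were protein coding. Their median longest transcript was 1206 bases and their median coding length 744 bases, beside 1671 and 1086 bases over the table and 1811 and 1407 bases over the 257 genes below both limits. A single exon was annotated in 18 of the 51 (35.3%), in 20.2% of the table and in 25.7% of the 257 genes. The set was thus shorter and more often without introns than the table, a description given without a test, and a limit in RPKM itself asks for fewer reads of a shorter transcript. Chromosome 3 held 14 of the 51 genes (27.5%) and 18.8% of the table, and chromosome 1 held 8 (15.7%) and 26.8%.

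Next to 23 of the 51 genes (45.1%) lay a gene that was also in the table, beside 40.3% over the table, and the neighbour was higher in ago1-27 for 20 of the 51 (39.2%), beside 29.2%. The 2 adjacent pairs within the set were the kinases around IOS1 and the CRK pair. A further 2 pairs lay close by with other genes between them, AT3G17520 with AT3G17580 across 14736 bases and AT5G44973 with AT5G45000 across 7071 bases. Another annotated gene overlapped 11 of the 51, and in 9 of these it was on the opposite strand, where reads of these libraries cannot be told apart.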

How the data were processed

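The deposited table gives 1 RPKM value per genotype and their ratio (fold change), per the file headers; the labels describe 3 replicates per genotype, 50-nt single-end reads and libraries without strand. The authors' processing named TopHat2 2.0.11 and TAIR10, per the submitters' processing notes; neither the counter, nor the handling of repeated reads, nor the choice of rows is given in the sources used here. The genes and lists were chosen with earlier results of these data known.

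Ratios are quotients of the deposited RPKM values; log2 differences use a pseudocount of 1 and genes of at least 1 RPKM in either genotype. With 1 value per genotype, no test was run. Library sizes, 11407616 to 12294210 reads in ago1-27 and 10453032 to 13887069 in wild type, and whole reads per library were solved from the deposited values to a relative tolerance of 2e-09, and the solution was tested on simulated data. Annotation, positions and sequences are RefSeq TAIR10.1, which held all 51 genes and 6772 of the 6791. Every gene is named with both values and an interval; estimated reads and positions are added for the 12 highest in ago1-27, those in the low-oxygen list, adjacent pairs and those next to a limit, and left out for many genes known from an annotation class alone. Genes outside the set are named where within 2 genes of it, in a list, class or the insertion, or near a limit. Protein identity was not analysed here. Alternatives were other limits, pseudocounts of 0.1 and 0.5, filters, and rescaling by the median of ratios or by quantiles. The tools were matplotlib 3.10.9 for figures and, in Python 3.11.15, scipy 1.17.1, numba 0.67.0, pandas 2.3.3 and numpy 2.4.6.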

Additional observations from a re-analysis of the deposited data

How the results depend on the processing

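The number of genes follows the limits: 11 with wild type below 0.25 RPKM, 200 with wild type below 1 RPKM, 189 with ago1-27 at 1 RPKM or more, and 11 with ago1-27 at 5 RPKM or more, in place of 51. Rescaling ago1-27 by the median of ratios, which moves every log2 ratio by -0.70 in a table where 69.4% of rows were higher, left 20 genes, and quantile normalization left 33. Without the 6 genes that were whole reads of 1 library pair, 45 remained. Of the 51, 33 passed the log2 threshold after the median of ratios, beside 2.95% of all rows compared, and 47 with quantile normalization, beside 6%; with a filter at 5 RPKM, 11 of the 11 left to compare passed, beside 10.7%. None changed direction under these rescalings or the pseudocounts, but the rule fixed this outcome. The lowest ratio of the 51 was 4.10, the median of ratios multiplied ago1-27 by 0.6163, and a shared pseudocount keeps the sign. Quantile normalization left 4711 of 6791 rows higher, the number as deposited, so it could not check direction for any gene list. The median of ratios could reverse only deposited ratios between 1 and 1.62. The median log2 difference of 1.61 became 2.91 and 2.10 with pseudocounts of 0.1 and 0.5, 1.13 after the median of ratios, 1.44 after quantile normalization and 2.32 with the filter at 5 RPKM. No paired analysis was possible because the labels number no replicates and no result comes from a test. Leaving out each library pair of the 11 genes reconstructed over 3 pairs, an alternative chosen after seeing the data, gave ratios of 5.29 to 68.4 and moved 3 of them by over 1.5 times; 7 met both limits whichever pair was left out. A median of 4.71 estimated wild-type reads per library limits every ratio.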
